A study of Homo sapiens with 12 samples.

Results

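The transcripts described here belong to 7 human genes of the amino acid and endoplasmic reticulum stress response: the transcription factors ATF4 and XBP1, the pseudokinase gene TRIB3, the enzyme genes ASNS, PHGDH and CTH, and STC2, which codes for a secreted glycoprotein. They were picked by symbol, 7 of the 14884 symbols that had a named transcript cluster (the array's unit for a gene), and each of the 7 had 1 cluster. Levels of these genes on the same arrays, including the low levels of ASNS and PHGDH in single lines, were known when the genes were chosen, so differences between lines are given as descriptions. RNA came from 3 established gastric cancer cell lines, SNU601, MKN1 and AGS, each grown in RPMI-1640 with fetal calf serum. Every line was exposed to Rhosin, which is a small molecule that inhibits the GTPase RhoA, to JK136, to JK139, or to the solvent DMSO, and each of the 12 combinations had 1 Affymetrix Human Gene 2.0 ST array. The labels give JK136 and JK139 by code name only, and doses and times of exposure are not given in the sources used here. No culture was repeated within a line and treatment, so the lines serve as the replicates of a treatment, and the spread between cultures of 1 line is unknown.

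When amino acids run short or unfolded protein builds up in the endoplasmic reticulum, kinases phosphorylate the translation factor eIF2alpha. Most translation then slows, while ATF4 mRNA is translated more, and the ATF4 protein switches on genes for amino acid synthesis, amino acid transport and tRNA charging. XBP1 belongs to a parallel branch, in which the sensor IRE1 (gene ERN1) splices XBP1 mRNA into the form that codes for the active factor. The array values are transcript levels. They report neither ATF4 translation nor XBP1 splicing.

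ATF4 with a C/EBP partner binds an element whose core can be written TGATGNAA, and endoplasmic reticulum stress genes carry an element written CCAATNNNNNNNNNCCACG. Both were searched on both strands in RefSeq promoter windows of GRCh38.p14, from 250 bases before to 50 bases after the transcript start, in 1 window for each of 27305 symbols. All 7 genes had a window. The first element was found in 1 of the 7 (ASNS), against 3.67% of all windows. The second was found in 1 of the 7 (XBP1), against 0.0806% of all windows. A match describes the letters only, and the arrays did not measure binding. These 2 windows are shown because each holds a match to 1 of the 2 elements. They are printed on the gene's strand, from the minus strand of chr7:97872359-97872658 for ASNS and of chr22:28800520-28800819 for XBP1, with the match in capitals. The first base of the match lies at -68 from the start in ASNS and at -52 in XBP1.
ASNS: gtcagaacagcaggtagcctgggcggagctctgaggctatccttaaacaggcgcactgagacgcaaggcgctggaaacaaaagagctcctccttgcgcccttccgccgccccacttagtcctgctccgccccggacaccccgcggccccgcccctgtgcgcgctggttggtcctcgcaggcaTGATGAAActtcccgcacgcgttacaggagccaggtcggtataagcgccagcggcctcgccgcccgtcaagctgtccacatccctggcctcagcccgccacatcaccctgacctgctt
XBP1: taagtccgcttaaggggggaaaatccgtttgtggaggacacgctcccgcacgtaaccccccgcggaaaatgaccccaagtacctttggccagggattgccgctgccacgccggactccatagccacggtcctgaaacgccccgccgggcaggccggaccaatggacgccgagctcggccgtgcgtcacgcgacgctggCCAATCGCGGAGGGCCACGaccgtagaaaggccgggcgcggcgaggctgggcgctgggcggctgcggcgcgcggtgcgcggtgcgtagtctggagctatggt

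Values are deposited log2 signals of 53617 clusters. Over these, Pearson's r was at least 0.978 for any pair of arrays within a line and at most 0.960 for any pair from separate lines. Epithelial markers were checked against the label of the lines: 4 of the 5 listed had a named cluster. EPCAM averaged 10.19 in SNU601, 6.49 in MKN1 and 10.04 in AGS, and KRT18 averaged between 9.63 and 10.75 over the lines. KRT19 averaged between 8.27 and 9.72, and KRT8 was lower, between 6.16 and 6.55. Of 8 listed markers of other cell types 4 had a cluster, and among these DCN (1.90 to 2.13), PECAM1 (3.48 to 3.99) and VWF (3.76 to 4.0) were low, while CD68 averaged 8.33 in SNU601, 8.65 in MKN1 and 6.14 in AGS. As a gauge of background, 12 genes restricted to tissues such as islet, testis, heart and brain had line means with medians of 3.89 in SNU601, 3.38 in MKN1 and 3.46 in AGS. The highest of them averaged 5.94 in SNU601, 5.30 in MKN1 and 5.71 in AGS. A filter kept genes with a mean above 4.61, the 40th percentile, which left 8930 genes for the tests. All 7 genes passed it, and PHGDH passed only through MKN1, since its means in the other lines lay below 4.61. STC2 averaged 4.30 in SNU601 and 4.68 in AGS, close to the filter, and 6.39 in MKN1.

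Each line had its own combination of high and low genes. AGS held the most ATF4, XBP1, ASNS and CTH transcript, MKN1 the most PHGDH and STC2, and SNU601 the most TRIB3. The mean of ASNS in SNU601 and those of PHGDH in SNU601 and AGS lay within the range of the tissue-restricted genes. So did those of STC2 in SNU601 and AGS, of CTH in SNU601 and MKN1 and of TRIB3 in AGS. A fold against any of these levels may understate the difference. Because these levels led to the choice of genes, no test is attached to them. In the fit of all genes, 7 of the 7 were called between MKN1 and AGS, where 66.3% of all tested genes were called. Between SNU601 and AGS 5 of the 7 were called (52.7% of all genes), and between SNU601 and MKN1 6 of the 7 (63.4% of all genes). The 4 arrays of a line did not overlap those of the other for 6 of the 7 between MKN1 and AGS (59.1% of all genes), 5 of the 7 between SNU601 and AGS (47.3%) and 6 of the 7 between SNU601 and MKN1 (62.1%). Nothing is read from these counts.

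**Figure D1:**
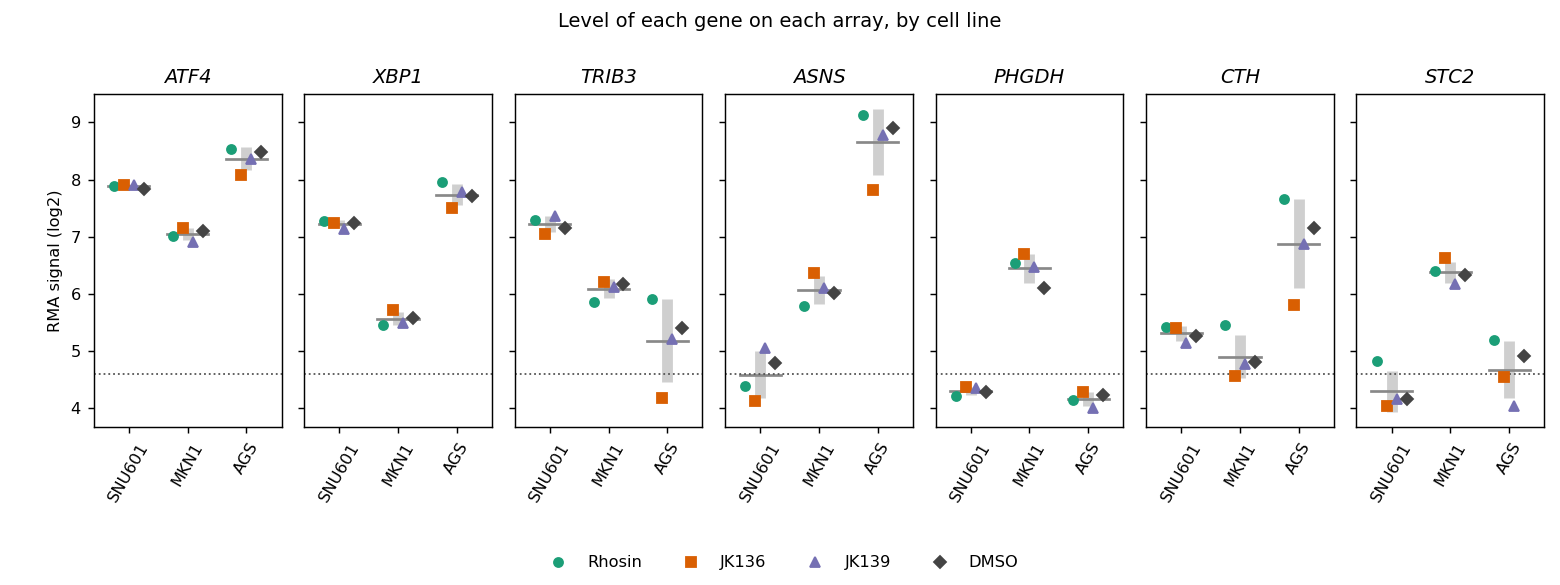
Log2 level of each of the 7 genes on every array, by cell line (SNU601, MKN1, AGS), with 1 point for each treatment, a horizontal line for the mean and a grey bar for the SD over the 4 arrays of a line; the dotted line marks the filter at 4.61. ASNS spans from 4.14 on a SNU601 array to 9.14 on an AGS array, and PHGDH lies below the filter on all SNU601 and AGS arrays.

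ATF4, the transcription factor that gives the response its name, was well expressed on every array. In SNU601 it had 7.89 with Rhosin, 7.90 with JK136, 7.91 with JK139 and 7.83 with DMSO. In MKN1 the values were 7.02 with Rhosin, 7.15 with JK136, 6.92 with JK139 and 7.11 with DMSO. In AGS they were 8.53 with Rhosin, 8.08 with JK136, 8.37 with JK139 and 8.49 with DMSO. The 3 lines did not overlap, and the order was AGS, SNU601, MKN1. The means were 7.88 ± 0.03 in SNU601, 7.05 ± 0.10 in MKN1 and 8.36 ± 0.20 in AGS (SD over the 4 arrays of a line, each with its own treatment). MKN1 thus held 2.49-fold less ATF4 transcript than AGS and SNU601 1.40-fold less than AGS.

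XBP1, the factor of the IRE1 branch, kept the same order of lines with wider gaps. It averaged 7.23 ± 0.06 in SNU601, 5.57 ± 0.12 in MKN1 and 7.74 ± 0.18 in AGS (SD, n = 4 each). Its arrays ranged from 7.14 to 7.28 in SNU601, from 5.46 to 5.72 in MKN1 and from 7.50 to 7.95 in AGS, with no overlap. MKN1 held 4.49-fold less than AGS, and SNU601 held 1.42-fold less than AGS.

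TRIB3 codes for a pseudokinase that is an ATF4 target and restrains ATF4 in a feedback loop. SNU601 arrays had 7.29 with Rhosin, 7.05 with JK136, 7.37 with JK139 and 7.16 with DMSO. MKN1 arrays had 5.85 with Rhosin, 6.22 with JK136, 6.12 with JK139 and 6.18 with DMSO. AGS arrays had 5.92 with Rhosin, 4.19 with JK136, 5.22 with JK139 and 5.41 with DMSO. SNU601 lay above both other lines without overlap, whereas MKN1 and AGS overlapped. Means were 7.22 ± 0.14 in SNU601, 6.09 ± 0.16 in MKN1 and 5.18 ± 0.73 in AGS (SD, n = 4 each), and SNU601 exceeded AGS 4.1-fold. AGS, the line with the most ATF4 transcript, had the lowest mean of TRIB3.

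ASNS, asparagine synthetase, makes asparagine from aspartate and is a classic target of ATF4 through the element printed above. SNU601 arrays had 4.39 with Rhosin, 4.14 with JK136, 5.05 with JK139 and 4.79 with DMSO. MKN1 arrays had 5.79 with Rhosin, 6.37 with JK136, 6.11 with JK139 and 6.02 with DMSO. AGS arrays had 9.14 with Rhosin, 7.82 with JK136, 8.78 with JK139 and 8.91 with DMSO. The lines did not overlap, and the order was AGS, MKN1, SNU601. Means were 4.59 ± 0.41 in SNU601, 6.07 ± 0.24 in MKN1 and 8.66 ± 0.58 in AGS (SD, n = 4 each). The SNU601 mean was 16.8-fold below that of AGS and 2.79-fold below that of MKN1. It stood on average at percentile 57.7 of all clusters on an array, against 79.4 in MKN1 and 96.6 in AGS.

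PHGDH catalyses the first step of serine synthesis from glycolysis. SNU601 arrays had 4.21 with Rhosin, 4.38 with JK136, 4.36 with JK139 and 4.29 with DMSO. MKN1 arrays had 6.54 with Rhosin, 6.71 with JK136, 6.47 with JK139 and 6.11 with DMSO. AGS arrays had 4.15 with Rhosin, 4.28 with JK136, 4.0 with JK139 and 4.23 with DMSO. All 4 MKN1 arrays lay above all 8 others, and the SNU601 and AGS arrays overlapped. Means were 4.31 ± 0.07 in SNU601, 6.45 ± 0.25 in MKN1 and 4.17 ± 0.12 in AGS (SD, n = 4 each). MKN1 exceeded AGS 4.89-fold, a value that may understate the difference because the AGS level lay within the range of the tissue-restricted genes. By contrast, SNU601 and AGS differed by 0.14 on the log2 scale, within their ranges. PHGDH and ASNS, both enzymes of amino acid synthesis, therefore had different orders of lines: AGS was highest for ASNS and shared the low level of PHGDH.

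CTH, cystathionine gamma-lyase, makes cysteine from cystathionine. SNU601 arrays had 5.43 with Rhosin, 5.40 with JK136, 5.15 with JK139 and 5.26 with DMSO. MKN1 arrays had 5.46 with Rhosin, 4.58 with JK136, 4.78 with JK139 and 4.81 with DMSO. AGS arrays had 7.66 with Rhosin, 5.81 with JK136, 6.88 with JK139 and 7.15 with DMSO. Every AGS array lay above every array of the other lines, and SNU601 and MKN1 overlapped. Means were 5.31 ± 0.13 in SNU601, 4.91 ± 0.38 in MKN1 and 6.88 ± 0.78 in AGS (SD, n = 4 each), so that MKN1 lay 3.91-fold and SNU601 2.96-fold below AGS. The AGS spread was the widest of any gene and line among the 7.

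STC2, stanniocalcin 2, is a secreted glycoprotein whose gene responds to endoplasmic reticulum stress. SNU601 arrays had 4.83 with Rhosin, 4.04 with JK136, 4.17 with JK139 and 4.16 with DMSO. MKN1 arrays had 6.40 with Rhosin, 6.62 with JK136, 6.18 with JK139 and 6.34 with DMSO. AGS arrays had 5.19 with Rhosin, 4.55 with JK136, 4.05 with JK139 and 4.92 with DMSO. MKN1 lay above both other lines without overlap, and SNU601 and AGS overlapped. Means were 4.30 ± 0.36 in SNU601, 6.39 ± 0.18 in MKN1 and 4.68 ± 0.50 in AGS (SD, n = 4 each), with MKN1 3.27-fold above AGS.

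Other genes of the pathway were mostly lower in MKN1 and in SNU601 than in AGS. The lists comprised further genes of amino acid synthesis (6 of 10 tested), tRNA synthetases (12 of 12) and stress regulators (7 of 14), and 0 of 8 amino acid transporters had a named cluster. Of these 25 tested genes 21 were called lower and 3 higher in MKN1 than in AGS, with a median log2 difference of -0.87, against 31.0% lower and 35.3% higher and a median of 0.02 over all genes. Between SNU601 and AGS 20 were called lower and 1 higher, with a median of -0.70, against 22.8% lower and 29.9% higher and a median of 0.05 over all genes. Between SNU601 and MKN1 the 25 genes divided into 9 called higher and 7 called lower (32.3% and 31.1% of all genes). TRIB3, PHGDH and STC2 thus differed in direction from most of the listed genes, since all 3 had higher means in MKN1 than in AGS.

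GDF15, which codes for a stress-induced cytokine, had the widest range of line means in these lists, with 7.88 ± 0.29 in SNU601, 5.74 ± 0.63 in MKN1 and 10.24 ± 0.28 in AGS (SD, n = 4 each). DDIT4, an inhibitor of mTORC1 signalling, averaged 6.23 in SNU601, 6.39 in MKN1 and 8.4 in AGS. Among synthesis genes PCK2, the mitochondrial phosphoenolpyruvate carboxykinase, averaged 5.39 in SNU601, 4.90 in MKN1 and 6.86 in AGS. PSAT1, which follows PHGDH in serine synthesis, averaged 9.24 in SNU601, 9.19 in MKN1 and 10.58 in AGS. PSAT1 was therefore highest in AGS, where PHGDH lay within the range of the tissue-restricted genes. Among synthetases WARS1, for tryptophan, averaged 5.73 in SNU601, 6.87 in MKN1 and 7.75 in AGS, and GARS1, for glycine, averaged 8.85 in SNU601, 8.10 in MKN1 and 9.48 in AGS.

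Upstream of ATF4, 5 of 8 listed genes were tested: those for the eIF2alpha kinases and GCN1, whose product activates the kinase GCN2. Their line means spanned 0.91 on the log2 scale at most. No listed gene for an eIF2alpha phosphatase was tested. EIF2AK4 codes for GCN2, the kinase that senses uncharged tRNA, and averaged 7.16 in SNU601, 6.77 in MKN1 and 7.67 in AGS. EIF2AK3 codes for PERK, the kinase of the endoplasmic reticulum, and averaged 6.84 in SNU601, 6.06 in MKN1 and 6.39 in AGS. In the unfolded protein response list 10 of 21 genes were tested. ERN1, the sensor that splices XBP1 mRNA, averaged 5.62 in SNU601, 4.38 in MKN1 and 5.71 in AGS. Its mean was lowest in the same line as that of XBP1. In every line the ERN1 mean lay within the range of the tissue-restricted genes, so this order is uncertain. SEC61B, a subunit of the protein translocation channel, averaged 7.04 in SNU601, 8.31 in MKN1 and 7.76 in AGS.

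The comparisons of compounds with DMSO ask whether these genes respond to the RhoA inhibitor or to the coded compounds. None of the 7 genes passed the test in any of them. In limma fits with the line as a term, 0 of 7 were called for Rhosin, JK136 or JK139 against DMSO or for the mean of the 3 compounds, and 0.0% of all 8930 genes were called in each. At an unadjusted p under 0.05 the fits held 560 genes for Rhosin, 469 for JK136, 218 for JK139 and 301 for the mean, and 0 of the 7 in each. The 3 comparisons share their DMSO arrays.

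**Figure D2:**
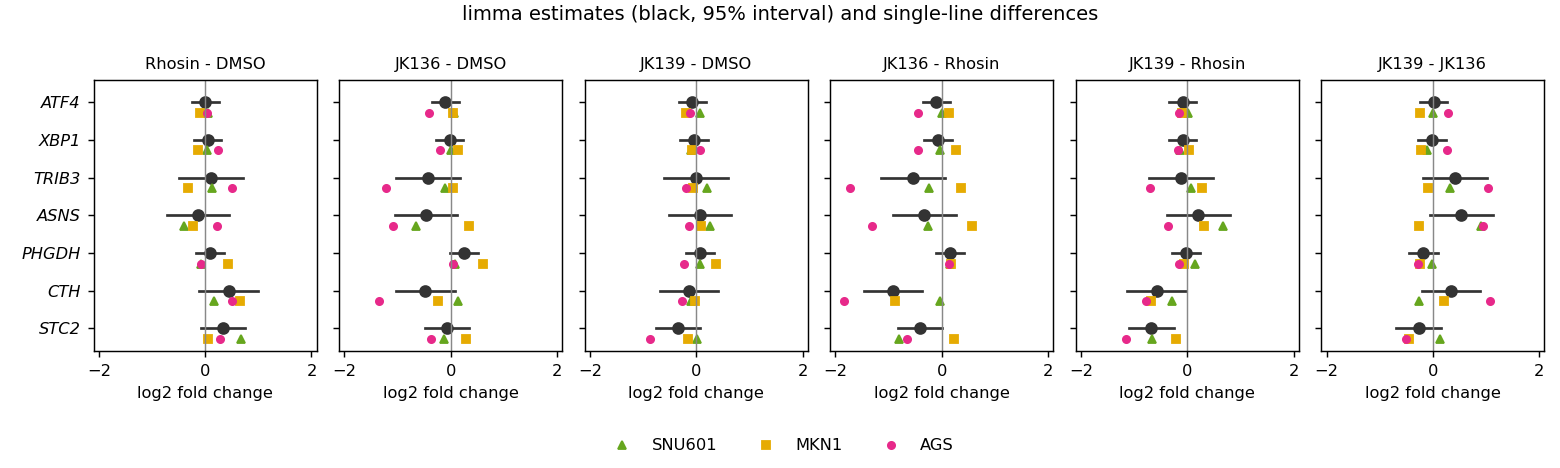
Log2 difference of each of the 7 genes in 6 comparisons, with the limma estimate over 3 lines and its 95% interval in black and the difference within each line as points. The interval of CTH lies below 0 for JK136 against Rhosin (-1.47 to -0.37) and that of STC2 for JK139 against Rhosin (-1.09 to -0.26), while neither passed the adjusted threshold.

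With Rhosin, CTH and STC2 lay above DMSO in 3 of 3 lines. The direction is uncertain where levels lay within the range of the tissue-restricted genes. This holds for CTH in SNU601 and MKN1 and for STC2 in SNU601 and AGS. The CTH difference was 0.17 in SNU601, 0.65 in MKN1 and 0.50 in AGS, for an estimate of 0.44 ± 0.25 (SE, 95% interval -0.11 to 0.99, limma adjusted p = 0.824). The STC2 difference was 0.67 in SNU601, 0.06 in MKN1 and 0.27 in AGS, for an estimate of 0.33 ± 0.19 (SE, 95% interval -0.08 to 0.75, limma adjusted p = 0.824). Leaving out 1 array moved the CTH estimate to between 0.24 (without the AGS array with Rhosin) and 0.68 (without the SNU601 array with Rhosin). The STC2 estimate was 0.16 without the SNU601 arrays and 0.56 without the MKN1 array with Rhosin. Over all genes, 12% lay higher with Rhosin in all 3 lines. The other 5 genes had estimates between -0.13 (ASNS) and 0.11 (TRIB3), and ATF4 itself had 0.00 ± 0.12 (SE), with an interval from -0.25 to 0.26.

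With JK136, CTH, ASNS and TRIB3 had the largest estimates, all below DMSO, and in each the AGS difference was the largest. The CTH difference was 0.14 in SNU601, -0.24 in MKN1 and -1.34 in AGS, for an estimate of -0.48 ± 0.25 (SE, interval -1.03 to 0.07, limma adjusted p = 0.902). The ASNS difference was -0.65 in SNU601, 0.35 in MKN1 and -1.09 in AGS, for an estimate of -0.46 ± 0.27 (SE, interval -1.05 to 0.12, limma adjusted p = 0.908). The TRIB3 difference was -0.11 in SNU601, 0.04 in MKN1 and -1.22 in AGS, for an estimate of -0.43 ± 0.27 (SE, interval -1.03 to 0.17, limma adjusted p = 0.935). Without the AGS arrays the estimates were -0.05 for CTH, -0.15 for ASNS and -0.04 for TRIB3. PHGDH had differences of 0.09 in SNU601, 0.60 in MKN1 and 0.05 in AGS, for an estimate of 0.25 ± 0.12 (SE, limma adjusted p = 0.902). Its levels in SNU601 and AGS lay within the range of the tissue-restricted genes, so no direction is read there, and without the MKN1 arrays the estimate was 0.07.

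With JK139, STC2 had the largest estimate, -0.34 ± 0.19 (SE, interval -0.76 to 0.08), with differences of 0.01 in SNU601, -0.16 in MKN1 and -0.88 in AGS. Without the AGS arrays it was -0.07. The other 6 estimates lay between -0.14 (CTH) and 0.07 (ASNS).

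The 3 pairs of compounds were compared on the same lines, 21 comparisons over the 7 genes, with p-values adjusted over all genes of a pair. The doses are unknown, so compound and dose cannot be told apart. For all 3 pairs 0 of 7 genes were called, as were 0.0% of all genes, and at an unadjusted p under 0.05 there were 812 genes for JK136 against Rhosin, 663 for JK139 against Rhosin and 494 for JK139 against JK136. Of the 7 genes, 1 for JK136 against Rhosin and 2 for JK139 against Rhosin were below that unadjusted level. Set against Rhosin, JK136 gave a lower CTH level in MKN1 (-0.89) and AGS (-1.85) and a nearly equal level in SNU601 (-0.03). The estimate was -0.92 ± 0.25 (SE, interval -1.47 to -0.37, limma adjusted p = 0.410). By sign alone CTH lay lower in all 3 lines, as did 14.6% of all genes. Without the AGS arrays the estimate was -0.46, from 2 lines where CTH lay within the range of the tissue-restricted genes.

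CTH also lay lower with JK139 than with Rhosin, by -0.28 in SNU601, -0.68 in MKN1 and -0.78 in AGS, for an estimate of -0.58 ± 0.25 (SE, interval -1.13 to -0.03, limma adjusted p = 0.663). STC2 lay lower with JK139 than with Rhosin by -0.66 in SNU601, -0.22 in MKN1 and -1.15 in AGS, for an estimate of -0.67 ± 0.19 (SE, interval -1.09 to -0.26, limma adjusted p = 0.570). Without the AGS arrays the estimates were -0.48 for CTH and -0.44 for STC2. Within the range of the tissue-restricted genes lay STC2 in SNU601 and AGS and CTH in SNU601 and MKN1. Both genes had the same direction in 3 of 3 lines, as did 14.4% of all genes in this comparison and direction. Between JK139 and JK136, ASNS differed by 0.91 in SNU601, -0.26 in MKN1 and 0.95 in AGS. Its SNU601 mean lay within the range of the tissue-restricted genes. The ASNS estimate was the largest of this pair, 0.54 ± 0.27 (SE, interval -0.05 to 1.12, limma adjusted p = 0.891). It was 0.20 without the AGS array with JK136, 0.95 without the MKN1 array with JK136 and 0.33 without the AGS arrays. For ATF4 the intervals of the 3 pairs lay within -0.36 and 0.28, and for XBP1 within -0.35 and 0.24, which leaves room for differences of that size.

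**Figure D3:**
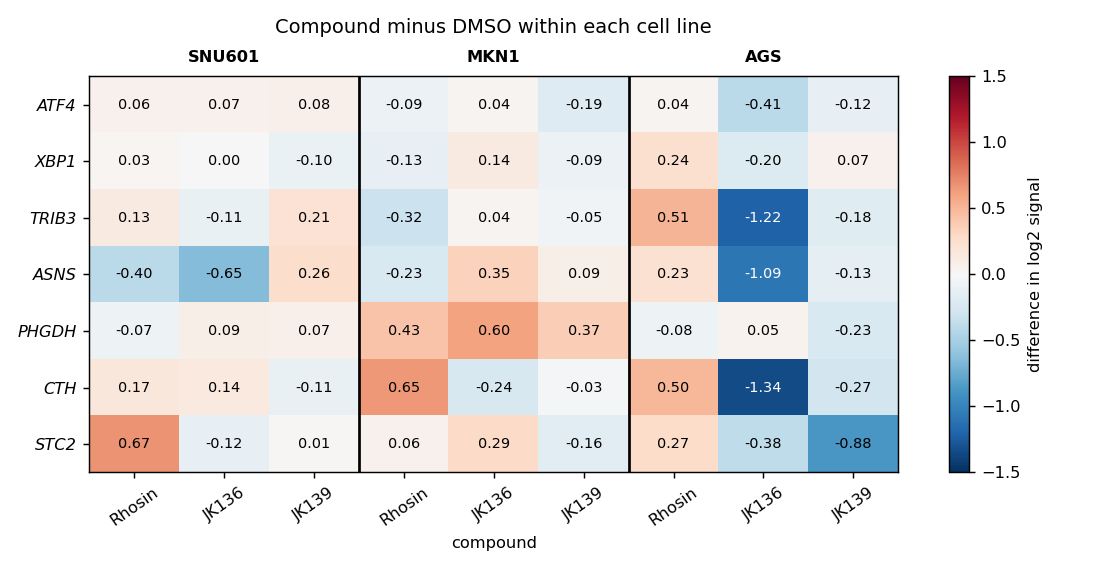
Heat map of the log2 difference between each compound and DMSO for the 7 genes (rows) in each line (columns), coloured by the size and sign of the difference. The AGS column of JK136 holds the lowest values, -1.34 for CTH, -1.22 for TRIB3 and -1.09 for ASNS.

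Within single lines no test is possible, since a line has 1 array per treatment, and differences of at least 1.5-fold were counted beside the same count over all genes. In AGS with JK136, 3 of the 7 genes lay at least 1.5-fold below DMSO, where 2.34% of all genes did: CTH by 2.54-fold, TRIB3 by 2.32-fold and ASNS by 2.12-fold. In AGS with JK139 1 gene did (STC2, 1.84-fold), against 0.649% of all genes. In MKN1, CTH lay at least 1.5-fold above DMSO with Rhosin (0.795% of all genes) and PHGDH with JK136 (0.817%). In SNU601, STC2 lay 1.59-fold above DMSO with Rhosin (1.15% of all genes) and ASNS 1.57-fold below with JK136 (0.717%). Differences are least certain where levels lay within the range of the tissue-restricted genes. Examples are ASNS, STC2 and CTH in SNU601, TRIB3 and STC2 in AGS and CTH in MKN1. TRIB3 was at 4.19 in AGS with JK136 and STC2 at 4.05 in AGS with JK139, so their folds are approximate here and in the pairs of compounds.

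Between compounds, AGS again held the most. With JK136 against Rhosin 4 of the 7 lay at least 1.5-fold lower in AGS (3.95% of all genes): CTH by 3.59-fold, TRIB3 by 3.32-fold, ASNS by 2.48-fold and STC2 by 1.56-fold. With JK139 against Rhosin 3 did (2.45% of all genes), namely STC2, CTH and TRIB3, and with JK139 against JK136 3 lay higher (2.34% of all genes), namely CTH, TRIB3 and ASNS. In MKN1, CTH alone passed this fold, lower with JK136 (1.08% of all genes) and with JK139 (1.05%) than with Rhosin. In SNU601, STC2 lay lower with JK136 (0.896%) and with JK139 (0.929%) than with Rhosin, and ASNS lay higher with JK139 than with Rhosin (0.784%) and than with JK136 (0.448%). In the other 21 of 36 combinations of line, comparison and direction none of the 7 passed 1.5-fold, where 0.549% to 3.65% of all genes did.

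The AGS array with JK136 was the lowest of the 4 AGS arrays for 5 of the 7 genes, as it was for 31.3% of all genes, and the AGS array with Rhosin was the highest for 6 of the 7, as it was for 29.0% of all genes. In MKN1 the JK136 array was the highest for 6 of the 7, as it was for 26.1% of all genes. With JK136, 2.34% of all genes lay at least 1.5-fold below DMSO in AGS, against 0.717% in SNU601 and 0.952% in MKN1. With JK139 the shares were alike, at 0.649% in AGS, 0.661% in SNU601 and 0.638% in MKN1. Whether the AGS array with JK136 stands for the treatment or for that culture cannot be told apart with 1 array. A further test compared the lines in their mean response to all compounds, with the spread between compounds as its error. In limma's F test it called 0 of the 7 genes and 0.0% of all genes. In AGS, CTH differed from DMSO by 0.50 with Rhosin and -1.34 with JK136, and TRIB3 by 0.51 and -1.22. Such opposite differences partly cancel in the mean and widen the error. The F test therefore cannot decide whether AGS responded to JK136 in its own way. At an unadjusted p under 0.05 that test held 244 genes and 0 of the 7.

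The wider lists ran with CTH, ASNS and TRIB3 in AGS. With JK136 all 12 synthetase genes lay below DMSO there, by 0.12 (TARS1) to 0.63 (IARS1) on the log2 scale and with a median difference of -0.46. Of the 25 genes of synthesis, tRNA charging and stress regulation, 22 lay lower and 8 by at least 1.5-fold, with a median of -0.48. Over all genes the median was -0.04, with 5030 lower and 3899 higher. The lowest were the stress regulators DDIT4 at -1.55, ATF5 at -1.27 and VEGFA at -1.05, and GDF15 lay higher by 0.21. In MKN1 the same compound had the opposite direction: 22 of the 25 lay above DMSO with a median of 0.13, including 12 of 12 synthetases. In SNU601 14 lay lower and 11 higher, with a median of -0.04. The lists were written with earlier results of these arrays known, and these counts come from 1 pair of arrays a line.

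With Rhosin in AGS 20 of the 25 lay higher, with a median of 0.13, and 12 of 12 synthetases did, although 10 of 12 when each array was centred on its median. Over all genes 4011 lay higher and 4919 lower, with a median of -0.03. Stress regulators had a median of 0.67 there, with 5 of 7 higher. With JK139 in AGS 20 of the 25 lay lower, with a median of -0.13, against 4767 of all 8930 genes and a median of -0.02. JK136 against Rhosin in AGS gave the widest shift, with 24 of 25 lower, 16 by at least 1.5-fold, and a median of -0.62. Over all genes 4610 lay lower, 3.95% by at least 1.5-fold, with a median of -0.01. PCK2 lay at -1.40 and DDIT4 at -2.47 in that comparison.

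**Figure D4:**
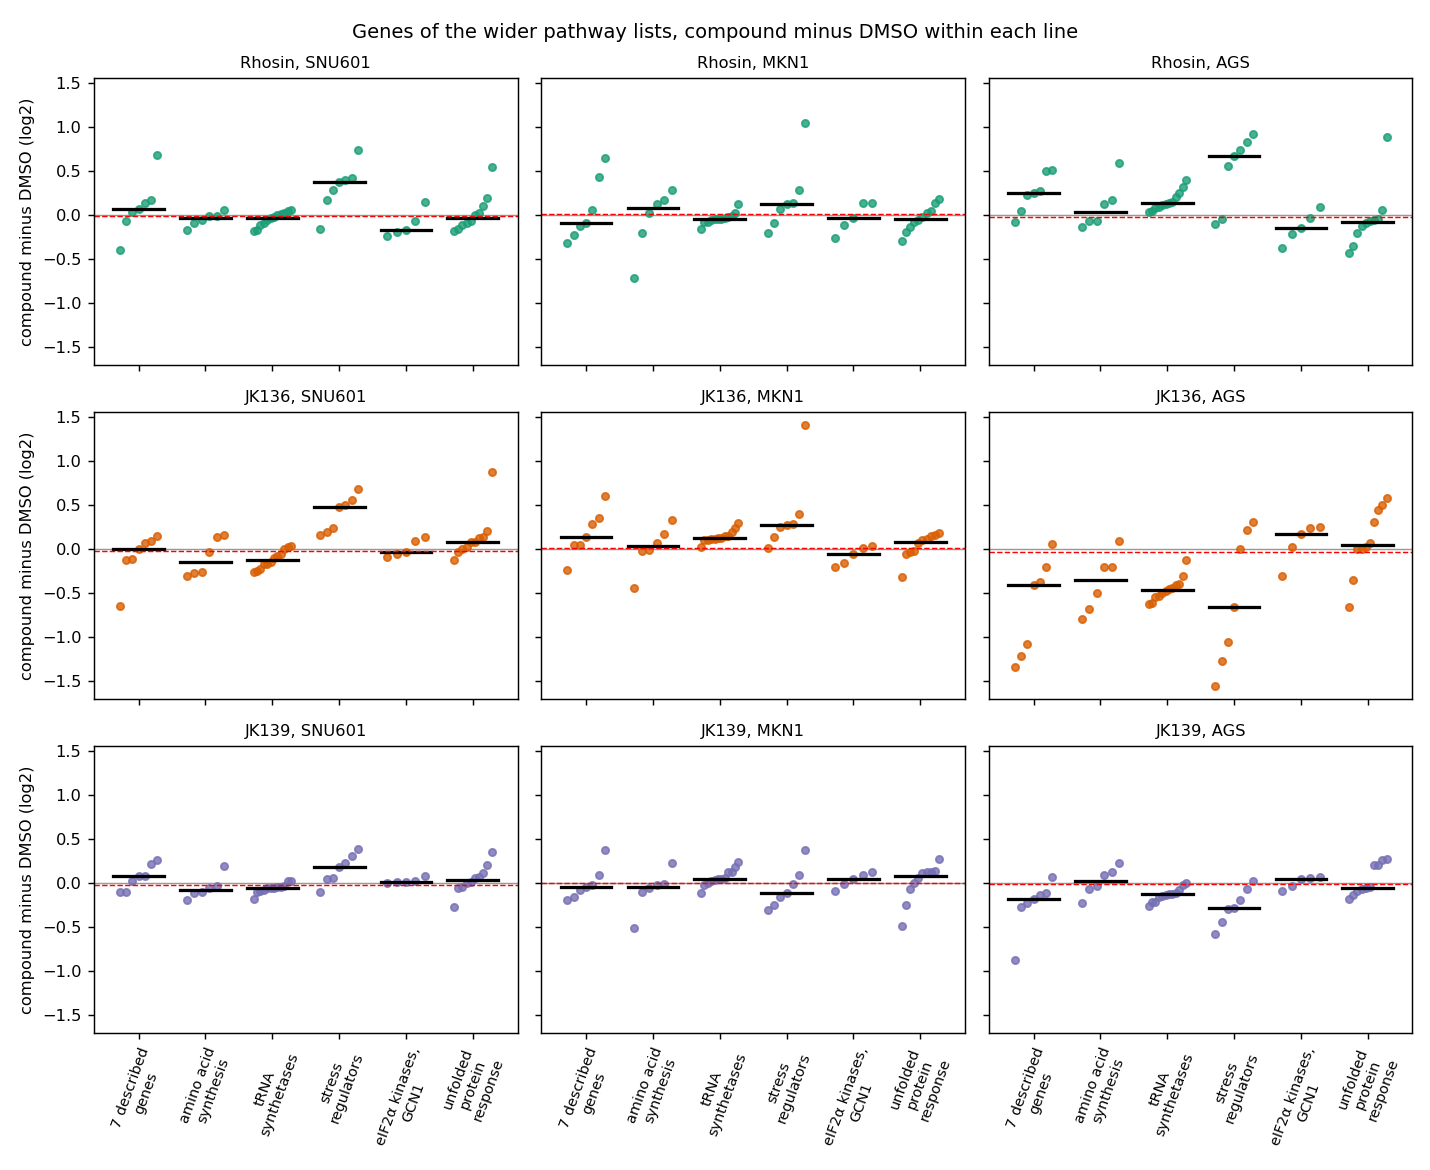
Log2 difference between each compound (rows) and DMSO for the genes of each list, by line (columns), with 1 point per gene, a black bar for the list median and a red dashed line for the median of all 8930 genes. In AGS with JK136 the synthetase points all lie below 0 (median -0.46), and in MKN1 they all lie above 0 (median 0.12).

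Across lines, no listed gene passed the test in any compound comparison. GDF15 had the largest estimates of the stress regulators for Rhosin, 0.66 ± 0.17 (SE, limma adjusted p = 0.532), and for JK136, 0.70 ± 0.17 (SE, limma adjusted p = 0.801). It lay above DMSO in 3 of 3 lines with both compounds. It thus differed from CTH, ASNS and TRIB3, whose estimates with JK136 were below 0. For JK139 the largest stress regulator estimate was EIF4EBP1, a translation repressor, at -0.18. Among synthesis genes PYCR1, an enzyme of proline synthesis, had -0.32 with Rhosin and -0.15 with JK139, and PCK2 had -0.35 with JK136. Among synthetases WARS1 had 0.14 with Rhosin and -0.14 with JK139, and CARS1 had -0.21 with JK136.

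With JK136 in AGS 8 of 10 genes of the unfolded protein response list lay above DMSO, with a median of 0.04, against 3899 of all 8930 genes and a median of -0.04. Of the 8, CANX, SEC61B and SEL1L lay within 0.02 of DMSO on the log2 scale. CALR, the chaperone calreticulin, lay higher by 0.58 and ERN1 lower by 0.66 on the log2 scale. Across lines ERN1 had the largest estimate with Rhosin (0.48), CALR with JK136 (0.18) and CRELD2 with JK139 (0.24). The means of ERN1 and CRELD2 lay within the range of the tissue-restricted genes in every line, so their differences are uncertain. MANF, a secreted factor of the endoplasmic reticulum, had 0.41 ± 0.10 (SE) for JK136 against Rhosin, with a limma adjusted p of 0.353. It lay higher in 3 of 3 lines, as did 13.2% of all genes. Of the eIF2alpha kinases, EIF2AK2, which senses double-stranded RNA, had -0.20 with Rhosin and 0.07 with JK139, and EIF2AK1, the heme-regulated kinase, had -0.18 with JK136.

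The TGATGNAA element lay in 6 of the 10 synthetase windows, in 3 of 11 stress regulator windows and in 0 of 5 windows of synthesis genes, against 3.67% of all windows. The 6 synthetase matches are shown beside that of ASNS. All 12 synthetases lay lower in AGS with JK136, whether or not a match was found, and a link to the element was not tested. Each is printed 5′ to 3′ on the strand that holds the motif, with 11 bases on either side and the motif in capitals. In coordinates of GRCh38.p14 they lie at chr7:97872458-97872487 (minus strand, ASNS), chr16:70289675-70289704 (plus, AARS1), chr18:57621804-57621833 (minus, NARS1), chr12:57488053-57488082 (minus, MARS1), chr9:92293692-92293721 (plus, IARS1), chr11:3057407-3057436 (plus, CARS1) and chr5:33440956-33440985 (minus, TARS1).
ASNS: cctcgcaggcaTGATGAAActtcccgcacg
AARS1: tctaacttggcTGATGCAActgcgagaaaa
NARS1: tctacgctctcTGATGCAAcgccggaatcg
MARS1: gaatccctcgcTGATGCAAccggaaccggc
IARS1: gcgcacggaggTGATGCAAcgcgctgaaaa
CARS1: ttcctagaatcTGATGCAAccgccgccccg
TARS1: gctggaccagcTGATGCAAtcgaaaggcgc

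In AGS with JK136 the 6 synthetases with a match had a median difference from DMSO of -0.48, and the 4 with a window and no match had -0.43 (GARS1, SARS1, WARS1 and EPRS1). Both sets lay below 0 throughout, from -0.63 to -0.12 with a match and from -0.48 to -0.40 without. LARS1 and YARS1, for which no window was used, had a median of -0.58.

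Deviations of each array from its line mean show which of the 7 genes varied together. These correlations describe 12 arrays that share lines and treatments. Pearson's r was 0.87 for ATF4 with TRIB3, 0.86 for ASNS with TRIB3, 0.80 for ATF4 with XBP1 and 0.74 for TRIB3 with CTH. PHGDH had r between -0.22 and 0.18 with the other 6, but 8 of its 12 values lay within the range of the tissue-restricted genes, and nothing is read from these values. Over the 21 pairs the median was 0.46, against 0.01 over all pairs of genes, and 9 of the 21 exceeded 0.5, as did 9.04% of all pairs. Over the 8 arrays of SNU601 and MKN1 the median was 0.10. There ASNS with TRIB3 kept 0.72 and ATF4 with XBP1 had 0.63, while ATF4 with TRIB3 had 0.37. In the same 8 arrays TRIB3 with CTH was -0.81 and ASNS with CTH was -0.70. However, the CTH means in SNU601 and MKN1 and the ASNS mean in SNU601 lay within the range of the tissue-restricted genes. No direction is read from these values of CTH, and those of ASNS are uncertain.

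Likeness to other genes was measured over the 12 arrays, by the root mean square distance between centred log2 levels and by r of the deviations from line means. By distance, ATF4 was closest to CHD2 (0.090) and LRP10 (0.103), XBP1 to LRIG1 (0.162) and INAVA (0.177), and ASNS to ZNF841 (0.469) and NID1 (0.497). PHGDH was closest to CCDC91 (0.161) and FBXL7 (0.167), TRIB3 to UST (0.386) and PPARG (0.411), and STC2 to IFT70A (0.287) and OSR1 (0.288). CTH was closest to PCK2 (0.239), itself a gene of the synthesis list, and RBCK1 (0.248). The median distance of a gene ran from 0.617 for ATF4 to 1.77 for ASNS, so these neighbours mostly share the order of the 3 lines.

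By r of deviations, ATF4 was nearest to EIF4EBP1 (0.95), a gene of the stress regulator list, and ARSG (0.94). XBP1 was nearest to PVR (0.94) and KHNYN (0.91), TRIB3 to BICRAL (0.96) and EXOSC8 (0.96), and ASNS to C5orf47 (0.94) and ZNF606 (0.94). PHGDH was nearest to CREBBP (0.92) and BCCIP (0.90), CTH to ELP3 (0.94) and NBAS (0.94), and STC2 to ASB7 (0.94) and KLF4 (0.94). These are the highest of 8923 values for each gene.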

How the data were processed

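RNA of 12 cultures was hybridised to Affymetrix Human Gene 2.0 ST arrays. The deposited values are log2 signals made by the authors with RMA in Affymetrix Expression Console, per the submitters' processing notes, and the versions are not given in the sources used here. RMA corrects background, quantile-normalizes arrays and summarises probes, which compresses differences near background. A symbol was at hand for 16098 of 53617 clusters, and the cluster with the highest mean stood for each of 14884 symbols. Genes below the 40th percentile of means were left out. limma 3.58.1 in R 4.3.3 fitted treatment and line over all 12 arrays, with Benjamini-Hochberg adjustment over 8930 genes and a threshold of 0.05. The p-values of compound comparisons rest on how far differences between treatments varied from line to line. Calls between lines rest on that same residual spread. The interaction fit took the compounds together and used the spread between them as its error. The fit was tested on simulated data. Differences within lines, correlations and promoter matches were computed in Python 3.11.15 with pandas 2.3.3 and numpy 2.4.6.

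The 7 genes, the gene lists and the tests were chosen with earlier results of these data known. The genes named beside the 7 are, for each, the 2 closest by distance and the 2 highest by r, and from each list the 2 with the widest range of line means among tested genes and the largest fold change of a compound comparison, not all of which are printed. TARS1, IARS1, ATF5, VEGFA, CANX, SEL1L and the values within AGS were added after they were seen. An adjustment over the 3 compound pairs of a single gene was computed and is not printed, because those differences were known when the genes were chosen. Alternatives covered normalization, filters, clusters, variance priors, array weights, the term for line, and leaving out each array or line. The number of arrays limits the precision.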

Additional observations from a re-analysis of the deposited data

How the results depend on the processing

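The count of called genes among the 7 was 0 in every compound comparison under all alternatives, also with line as a random block or with no line term. In the interaction it was 0 under the 17 alternatives in which the interaction was fitted. Leaving out each array in turn gave 7 called between MKN1 and AGS, 5 to 6 between SNU601 and AGS and 6 to 7 between SNU601 and MKN1. The lowest counts came from the filter at the 60th percentile, which removes PHGDH and STC2 and left 5 called between MKN1 and AGS and 4 between SNU601 and MKN1. Of 1038 alternative fold changes 68 had the other sign and 0 were called, with the lowest adjusted p of 0.22 (STC2, JK139 against Rhosin). CTH for JK136 against Rhosin ranged from -1.36 to -0.46. On the DMSO array alone 2 of 21 line means moved by more than their SD: ATF4 in SNU601 was 7.83 and PHGDH in MKN1 was 6.11. For JK136 against DMSO in AGS, 6 of 7 genes and 12 of 12 synthetases lay lower under both other normalizations (lists within lines under other normalizations were added after seeing the data). With Rhosin in SNU601, 8 of 12 synthetases lay lower as deposited and 3 of 12 after quantile normalization of the arrays. The interaction could not be fitted without a DMSO array. It was not fitted with a line left out, with line as a random block or with no line term. With 1 array per line and treatment, no culture error is known, and signals within the range of the tissue-restricted genes are the least certain. These are ASNS in SNU601, PHGDH and STC2 in SNU601 and AGS, CTH in SNU601 and MKN1, and TRIB3 in AGS.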

Other observations

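The stress genes VLDLR, ERO1B and DDIT3 lay below the filter and were chosen after their values were seen. VLDLR, the very low density lipoprotein receptor, averaged 3.12 ± 0.23 in SNU601, 5.77 ± 0.21 in MKN1 and 3.14 ± 0.17 in AGS (SD, n = 4 each), highest in MKN1, as were PHGDH and STC2. ERO1B, an oxidase of the endoplasmic reticulum, averaged 2.79 ± 0.08 in SNU601, 4.81 ± 0.24 in MKN1 and 4.93 ± 0.03 in AGS. DDIT3, which codes for CHOP, averaged 4.47 in SNU601, 4.06 in MKN1 and 4.59 in AGS. With JK136 its difference from DMSO was 0.54 in SNU601, 0.72 in MKN1 and -0.26 in AGS.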
